A study of Mus with 10 samples.

Results

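The genes described here encode the NF-κB transcription factor itself and the IκB proteins that bind it. They were taken by name and comprised 10 of the 24564 genes in the deposited table. *Rela*, *Relb*, *Rel*, *Nfkb1* and *Nfkb2* encode the 5 subunits, *Nfkbia*, *Nfkbib* and *Nfkbie* encode the 3 cytoplasmic inhibitors, and *Nfkbiz* and *Bcl3* encode 2 nuclear IκB proteins. All 10 passed the filter on low counts and were among the 11463 genes tested. Type 1 innate lymphoid cells (ILC1s), tissue-resident lymphocytes that make interferon-γ, were sorted from the liver of untreated C57BL/6 mice and sequenced in bulk. There were 5 libraries from *Ncr1*+/+ mice and 5 from *Ncr1*gfp/gfp mice, in which *gfp* replaces both copies of *Ncr1*, the gene of the activating receptor NKp46. By the study's methods the animals were young adults of either sex, and the replacement is carried in every cell of the animal. All cells were gated as Lin-NK1.1+CD49b-CD49a+, but *Ncr1*+/+ ILC1s were taken as NKp46+ with an antibody and *Ncr1*gfp/gfp ILC1s as GFP+. The effect of the genotype and that of the gate, antibody included, therefore cannot be told apart. The study speaks of RNA pools, without saying how many mice a library holds, so that p-values measure only the spread between these libraries.

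NF-κB is a dimer of subunits that share a Rel homology domain. RelA (p65), RelB and c-Rel carry an activation domain, whereas p50 and p52 are made from the larger *Nfkb1* and *Nfkb2* products p105 and p100, which themselves act as inhibitors. In resting cells IκBα, IκBβ and IκBε hold dimers in the cytoplasm until the IκB kinase (IKK) marks them for destruction. *Nfkbia*, *Nfkbie*, *Nfkb2*, *Relb*, *Nfkbiz* and *Bcl3* are themselves induced by NF-κB, the inhibitors thereby forming a feedback loop. In lymphocytes the pathway lies downstream of antigen, cytokine and TNF family receptors, and the study asks about it in relation to NKp46 and to *Il2ra*, which encodes the IL-2 receptor chain IL-2Rα.

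Library sizes ran from 15796253 to 22623133 counts. Counts were scaled to library size with TMM normalization and are given as CPM (counts per library scaled to a common total). *Ncr1* had 1913 to 2144 CPM in the *Ncr1*+/+ libraries and 141 to 356 CPM where it was replaced, so the labels fit the genotype although reads on the gene remained. The ILC1 markers *Itga1* and *Tbx21* were present in every library, at 732 CPM or more and 387 CPM or more. *Itga1*, which encodes the gating marker CD49a, rose from 779 ± 30.4 CPM in *Ncr1*+/+ to 971 ± 35.1 CPM in *Ncr1*gfp/gfp ILC1s without overlap (adjusted p = 0.000481, edgeR quasi-likelihood fit). The summed level of 9 ILC1 markers, *Ncr1* among them, was 6845 to 7137 CPM in *Ncr1*+/+ and 5227 to 5467 CPM in *Ncr1*gfp/gfp libraries. The estimates of *Tbx21*, *Cd200r1*, *Cxcr6* and *Xcl1* were lower, and those of *Tnfsf10*, *Cd160* and *Klrb1c* higher. None of these ILC1 markers had an adjusted p under 0.05. The summed level of 8 T cell markers was higher in each *Ncr1*gfp/gfp library (633 to 835 CPM) than in each *Ncr1*+/+ library (461 to 579 CPM). Of these, *Cd3e*, *Cd3g* and *Cd8a* rose (adjusted p from 0.00169 to 0.0248, edgeR quasi-likelihood fit). The estimates of *Cd3d* and *Cd4* were higher but did not pass (adjusted p = 0.0527 and 0.923, same fit). *Cd5*, *Cd6* and *Cd8b1* were too low to be tested. The means of *Cd5* and *Cd6* were higher in *Ncr1*gfp/gfp libraries, and that of *Cd8b1* was lower (0.0106 against 0.304 CPM). *Cd3g* alone made up most of the sum, and no listed T cell gene was at 0 in all libraries. The lineage antibodies of the gate include anti-CD3, and whether T cells remained after sorting was not tested. The summed levels of the lists for B cells, myeloid and Kupffer cells, hepatocytes, endothelium and NK cells overlapped between the genotypes. On average in *Ncr1*+/+ libraries, *Trf* held 138 of the 148 CPM of the hepatocyte list. *Pecam1* held 130 of the 131 CPM of the endothelial list. These 2 sums thus say little about the other genes of their lists. The summed level of the ILC2 and ILC3 list was lower in *Ncr1*gfp/gfp libraries, at 177 ± 18.2 CPM against 206 ± 10.2 CPM (exact permutation test, two-sided, p = 0.0159), and of its genes *Kit* fell (adjusted p = 0.0290, edgeR quasi-likelihood fit). Y-linked *Eif2s3y* was at 88.4 CPM or more and *Xist* at 1.09 CPM or less in all 10 libraries. All 10 libraries thus had the pattern of male cells, although the methods name both sexes. The part of these differences in the results below was not tested.

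Loss of NKp46 went with a lower level of 1 of the 10 genes, *Nfkbiz*, which encodes the nuclear protein IκBζ. It fell to 0.72 of its *Ncr1*+/+ level. *Rela* was lower in every *Ncr1*gfp/gfp library as well, by a smaller amount that did not pass the adjustment over all genes. The remaining 8 genes, including the other 4 subunits and all 3 cytoplasmic inhibitors, did not pass either. At an adjusted p-value under 0.05 (quasi-likelihood test in edgeR, adjusted over all tested genes by Benjamini-Hochberg) 1 of 10 genes passed, against 1.35% of all tested genes. At an unadjusted p under 0.05 it was 3 of 10, against 11.4% of all tested genes. None was called at the study's additional threshold of a fold change above 1.5 or below 0.7, which 0.733% of all tested genes met. The estimate was lower in *Ncr1*gfp/gfp ILC1s for 9 of 10 genes, against 49.3% over all tested genes, and the 9 estimates ran from -0.01 for *Nfkbie* to -0.47 for *Nfkbiz* on the log2 scale. The median log2 fold change was -0.09 for the 10 genes and 0.003 for all tested genes.

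**Figure D1:**
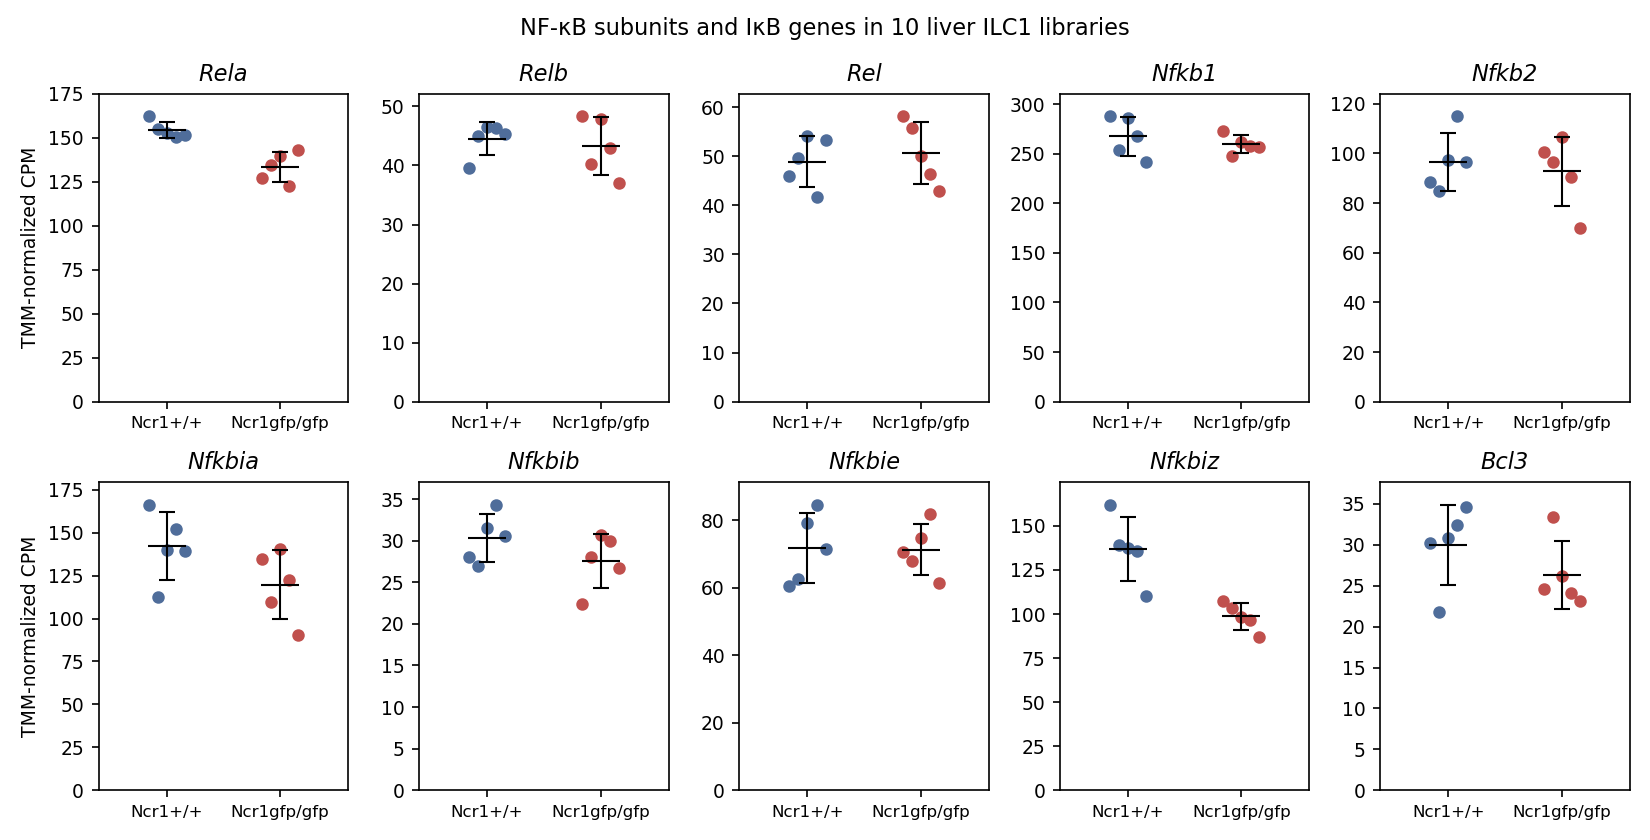
TMM-normalized CPM of the 10 genes in each library (points, 5 libraries a genotype; bar and whiskers, mean ± SD; each vertical axis starts at 0). *Rela* and *Nfkbiz* separate the genotypes without overlap, and the other 8 genes overlap.

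*Nfkbiz* encodes IκBζ, an inducible nuclear IκB protein that binds p50 and is needed for the transcription of a subset of NF-κB targets. The deposited table places it on chromosome 16, minus strand, between 55811490 and 55838754. The table does not name the build of its coordinates, and its gene starts differ from those of RefSeq on GRCm38.p6 for all 10 genes. *Nfkbiz* had 162, 139, 138, 136 and 110 CPM in *Ncr1*+/+ replicates 1 to 5. It had 107, 103, 98.5, 96.5 and 87.1 CPM in *Ncr1*gfp/gfp replicates 1 to 5. The 2 genotypes did not overlap, and the closest values were 110 CPM for *Ncr1*+/+ replicate 5 and 107 CPM for *Ncr1*gfp/gfp replicate 1. Among all tested genes, 1.82% were without overlap in this direction. The log2 fold change was -0.47 (standard error 0.08, 95% interval -0.65 to -0.30, adjusted p = 0.00393 in the edgeR quasi-likelihood fit), which gave *Nfkbiz* rank 49 of 11463 genes by p-value. The two-sided exact permutation test of the means gave p = 0.00794, the smallest that 5 libraries against 5 allow. The fold change of 0.72 had a 95% interval of 0.64 to 0.81 and so reached past the 0.7 threshold. In bulk RNA, fewer cells that express the gene and less of its RNA per cell cannot be told apart.

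*Nfkbiz* varied together with genes that tissue dissociation is known to induce during cell isolation, mainly among the *Ncr1*+/+ libraries. A list of 14 such dissociation-response genes, among them *Fos*, *Jun*, *Egr1*, *Ier2* and *Hspa1a*, had a summed level of 4581, 4155, 3206, 3343 and 2078 CPM in *Ncr1*+/+ replicates 1 to 5. In *Ncr1*gfp/gfp replicates 1 to 5 the sum was 2379, 2607, 2305, 3108 and 2300.4 CPM. The list was thus higher in 4 *Ncr1*+/+ libraries than in any *Ncr1*gfp/gfp library and lowest of all 10 in *Ncr1*+/+ replicate 5 (exact permutation test, two-sided, p = 0.0952). *Fos*, *Junb* and *Zfp36* fell in *Ncr1*gfp/gfp ILC1s (adjusted p = 0.0377, 0.0334 and 0.0179, edgeR quasi-likelihood fit), and no gene of the list rose at an adjusted p under 0.05. The estimate was lower for 13 of the 14 genes and higher for 1, *Ier3* (log2 fold change 0.83, adjusted p = 0.439, same fit). With the genotype means removed, the log2 level of *Nfkbiz* followed that of the list over the 10 libraries with Pearson's r of 0.77. It was 0.73 when the 2 genes also listed as NF-κB targets were left out. Among the *Ncr1*gfp/gfp libraries, replicate 4 had the highest sum of the list, at 3108 CPM. Its *Nfkbiz* level, at 96.5 CPM, was below that of *Ncr1*gfp/gfp replicates 1 to 3. In *Ncr1*+/+ replicate 5, where the list was below every *Ncr1*gfp/gfp library, *Nfkbiz* was at 110 CPM, and the highest *Ncr1*gfp/gfp value was 107 CPM. Without *Ncr1*+/+ replicate 5 the log2 fold change of *Nfkbiz* was -0.54 (adjusted p = 0.000571), and without *Ncr1*+/+ replicate 1, the highest in both measures, it was -0.41 (adjusted p = 0.0132, edgeR quasi-likelihood fit). The part of the list in the lower *Nfkbiz* was not tested beyond these values.

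The 3 tested genes that followed *Nfkbiz* most closely within the genotypes were *Phpt1*, *Eral1* and *Tnfaip3*, with Pearson's r of 0.93, 0.91 and 0.90 over 10 libraries. These coefficients describe libraries that share depth and preparation and carry no test. *Tnfaip3*, which encodes the deubiquitinase A20 that shuts the pathway off, had 519, 467, 343, 358 and 268 CPM in *Ncr1*+/+ replicates 1 to 5. It had 340.2, 276, 280.1, 300.1 and 220.3 CPM in *Ncr1*gfp/gfp replicates 1 to 5. The values overlapped, and the log2 fold change of -0.46 did not pass (standard error 0.13, adjusted p = 0.0888, edgeR quasi-likelihood fit). The level of *Tnfaip3* followed the dissociation-response list with a coefficient of 0.83 on the same residuals.

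**Figure D2:**
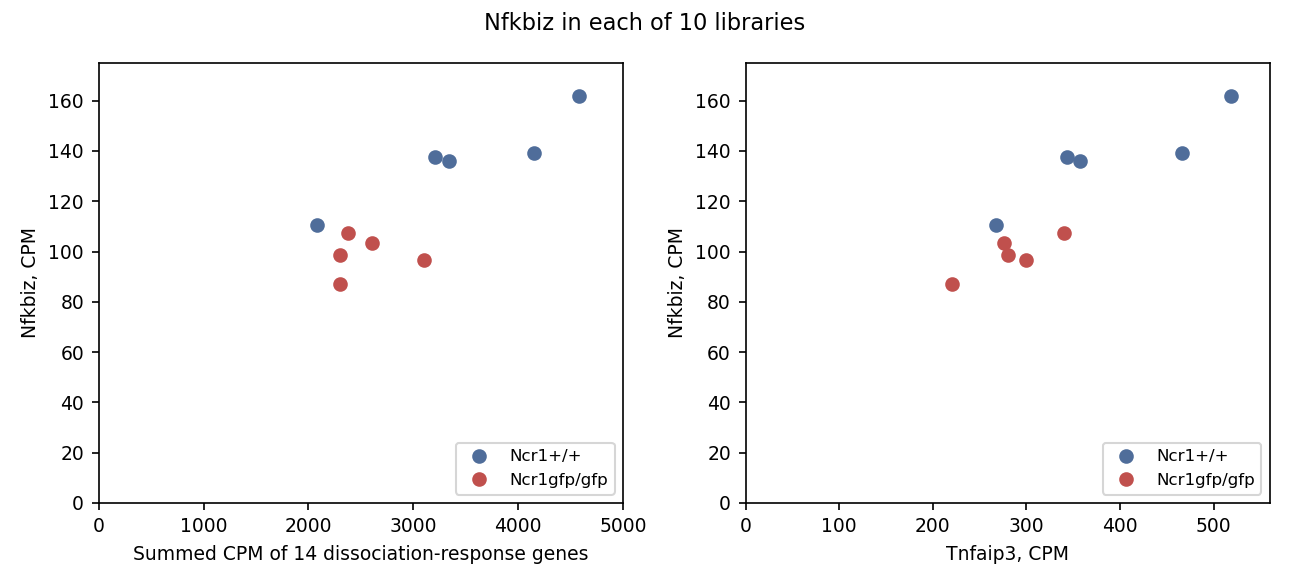
*Nfkbiz* CPM in each of the 10 libraries (vertical axis) against the summed CPM of the 14 dissociation-response genes (left) and against *Tnfaip3* CPM (right). *Ncr1*+/+ replicate 5, at 110 CPM of *Nfkbiz*, lies beside the *Ncr1*gfp/gfp libraries on both horizontal axes and just above them on the vertical axis.

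*Rela* encodes p65, the subunit with the main activation domain of the canonical dimer, and is placed on chromosome 19, plus strand, between 5637490 and 5648130. It had 162, 155, 152, 150.4 and 151 CPM in *Ncr1*+/+ replicates 1 to 5 and 127, 135, 140, 123 and 143 CPM in *Ncr1*gfp/gfp replicates 1 to 5. The ranges did not overlap (two-sided exact permutation test, p = 0.00794), with 143 CPM as the highest *Ncr1*gfp/gfp and 150.4 CPM as the lowest *Ncr1*+/+ value. The log2 fold change was -0.21 with a standard error of 0.06 and a 95% interval from -0.34 to -0.08, which is 0.86 of the *Ncr1*+/+ level. In the edgeR quasi-likelihood fit the p-value of 0.00245 became 0.0994 after adjustment over all tested genes, and DESeq2 gave an adjusted p of 0.0281 for a log2 fold change of -0.21. *Rela* varied least of the 10 genes within a genotype, with an SD of 0.07 on the log2 scale. With the genotype means removed, *Rela* and *Nfkbiz* had a Pearson's r of 0.04 over the 10 libraries. The genes whose residuals were most like those of *Rela* were *Dbndd2*, *Pmm1* and *Mir1955* (r from 0.93 to 0.95 over 10 libraries). *Pmm1* and *Mir1955* had libraries without a count, so that their coefficients rest on few reads.

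The other subunits did not differ beyond the spread between libraries. *Nfkb1*, which encodes p105 and p50, had 241 to 288 CPM in *Ncr1*+/+ and 248 to 273 CPM in *Ncr1*gfp/gfp ILC1s. Its log2 fold change had the narrowest 95% interval of the 10 genes, from -0.16 to 0.08. *Nfkb2*, which encodes p100 and p52 of the non-canonical pathway, had 84.9 to 115 CPM and 70.1 to 106 CPM, with an interval from -0.26 to 0.15. *Relb*, the partner of p52, had 39.6 to 46.4 CPM and 37.0 to 48.3 CPM, with an interval from -0.24 to 0.15. *Rel*, which encodes the lymphocyte subunit c-Rel, was the only one of the 10 genes with a positive estimate, at 0.05 with an interval from -0.15 to 0.26. Its values were 41.6 to 54 CPM in *Ncr1*+/+ and 42.8 to 58.1 CPM in *Ncr1*gfp/gfp ILC1s. The adjusted p-values of these 4 genes were between 0.863 and 0.927 (edgeR quasi-likelihood fit). A change of 1.5-fold in either direction lay outside the 95% interval of each of the 4 genes. *Nfkb2* overlaps the antisense gene *4833438C02Rik* over 893 bases, and *4833438C02Rik* had 245 to 523 counts a library against 1178 to 2278 for *Nfkb2*. Because the kit does not mark strand, reads of this stretch cannot be assigned to one of them with certainty.

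Among the cytoplasmic inhibitors, *Nfkbia* had the largest estimated difference. It encodes IκBα, the inhibitor that NF-κB re-induces fastest. *Nfkbia* had 166, 113, 140.0, 152 and 139 CPM in *Ncr1*+/+ replicates 1 to 5 and 135, 109.8, 140.4, 123 and 90.4 CPM in *Ncr1*gfp/gfp replicates 1 to 5. The ranges overlapped over most of their extent, and *Ncr1*gfp/gfp replicate 3 was as high as the middle *Ncr1*+/+ value (p = 0.111, exact permutation test, two-sided). Its log2 fold change of -0.25 had a standard error of 0.11, an unadjusted p of 0.0291 and an adjusted p of 0.348 (edgeR quasi-likelihood fit). Without *Ncr1*gfp/gfp replicate 5 the estimate was -0.16, and without *Ncr1*+/+ replicate 2 it was -0.32. *Nfkbib*, which encodes IκBβ, had 27.0 to 34.3 CPM in *Ncr1*+/+ and 22.4 to 30.7 CPM in *Ncr1*gfp/gfp ILC1s, a log2 fold change of -0.13 with a 95% interval from -0.36 to 0.09 (adjusted p = 0.735, edgeR quasi-likelihood fit). Without *Ncr1*gfp/gfp replicate 1 it was -0.07, and without *Ncr1*+/+ replicate 4 it was -0.08. *Nfkbie*, which encodes IκBε, had 60.7 to 84.6 CPM and 61.3 to 81.8 CPM, a log2 fold change of -0.01 with a 95% interval from -0.21 to 0.19 (adjusted p = 0.988, edgeR quasi-likelihood fit).

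*Bcl3*, the second nuclear IκB protein, acts with p50 and p52 homodimers. It had 30.3, 21.8, 30.8, 32.5 and 34.7 CPM in *Ncr1*+/+ replicates 1 to 5 and 24.6, 33.4, 26.2, 24.1 and 23.1 CPM in *Ncr1*gfp/gfp replicates 1 to 5. The lowest *Ncr1*+/+ value was that of replicate 2 at 21.8 CPM, below all *Ncr1*gfp/gfp values, and the highest *Ncr1*gfp/gfp value was that of replicate 2 at 33.4 CPM. The log2 fold change was -0.19 with a 95% interval from -0.46 to 0.08 (adjusted p = 0.654, edgeR quasi-likelihood fit). It was -0.29 without *Ncr1*gfp/gfp replicate 2 and also -0.29 without *Ncr1*+/+ replicate 2. *Bcl3*, *Relb* and *Nfkbib* lie on chromosome 7, as does *Ncr1*, at distances of 16.1, 15.9 and 25.2 Mb from it in the coordinates of the table. None of these 3 genes passed.

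**Figure D3:**
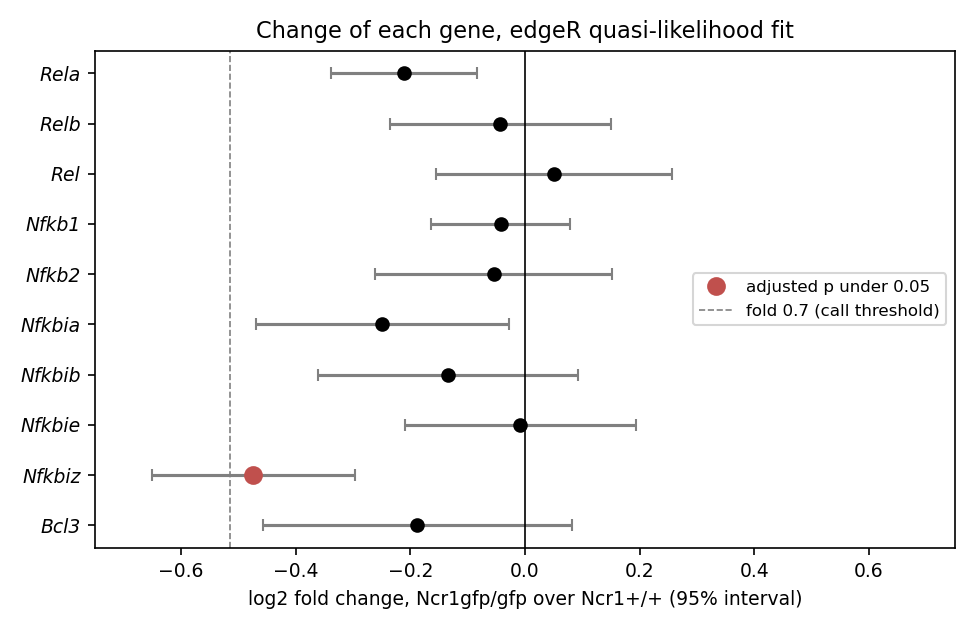
Log2 fold change of each gene in *Ncr1*gfp/gfp over *Ncr1*+/+ ILC1s with its 95% interval, from the edgeR fit over all genes; the dashed line marks a fold change of 0.7. *Nfkbiz* is the only gene with an adjusted p under 0.05, and its estimate of -0.47 lies just inside the line.

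Divided by exon length, the levels of the genes could be compared with each other. In *Ncr1*+/+ ILC1s *Nfkbia* was highest at 90.1 ± 12.5 CPM per kb (SD, n = 5), followed by *Nfkb1* at 64.9 ± 4.88 and *Rela* at 57 ± 1.73 CPM per kb. A second tier held *Nfkbiz* at 35.3 ± 4.71, *Nfkbie* at 29.4 ± 4.25 and *Nfkb2* at 29.3 ± 3.53 CPM per kb. *Relb*, *Rel*, *Bcl3* and *Nfkbib* were lowest, between 14.3 and 20.3 CPM per kb on average. Within the second tier, and from *Relb* down to *Nfkbib*, the ranges of neighbours in this order overlapped in both genotypes. *Nfkb1* was above *Rela* in all 10 libraries, although their *Ncr1*+/+ ranges overlapped. In *Ncr1*gfp/gfp ILC1s *Nfkbiz* was at 25.4 ± 1.99 CPM per kb, below the means of *Nfkbie* (29.3 ± 3.14) and *Nfkb2* (28.2 ± 4.24), whose ranges it overlapped.

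**Figure D4:**
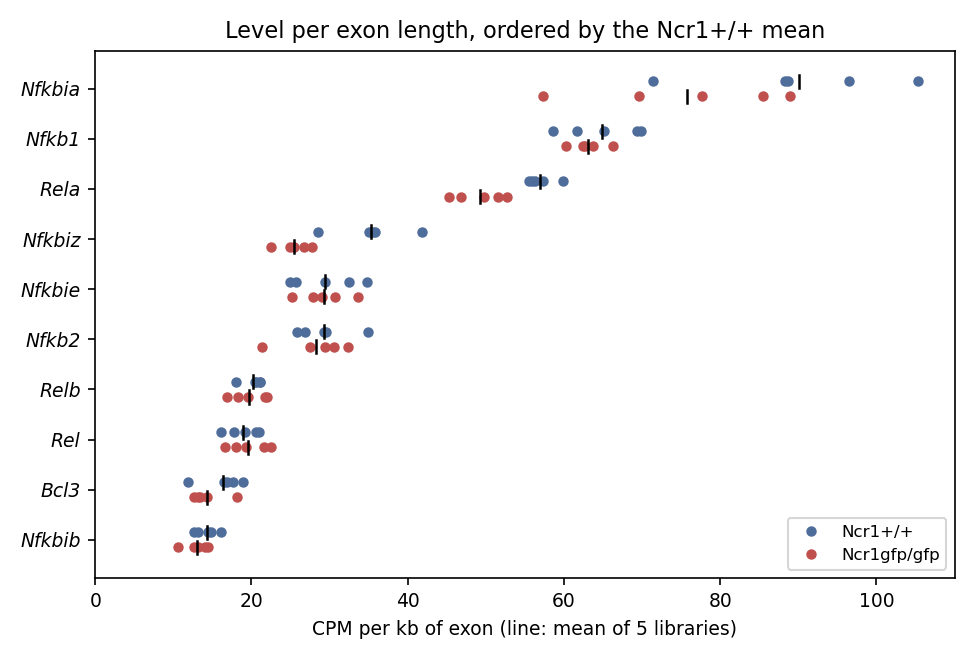
CPM per kb of exon of each gene in the 10 libraries (points; vertical strokes, means of 5 libraries), ordered by the *Ncr1*+/+ mean. *Nfkbia*, *Nfkb1* and *Rela* are at 45.3 CPM per kb or more in all libraries, and the other 7 genes at 41.8 CPM per kb or less.

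Of the summed per-length level of the 5 subunits, *Nfkb1* took 34.1% ± 1.77 in *Ncr1*+/+ and 35.1% ± 1.41 in *Ncr1*gfp/gfp ILC1s, and *Rela* took 29.9% ± 1.22 and 27.4% ± 2.31 (SD, n = 5 each). *Nfkb2*, *Relb* and *Rel* shared the rest, with between 9.95% and 15.6% each on average. *Nfkbia* made up 67.2% ± 3.54 of the 3 cytoplasmic inhibitors in *Ncr1*+/+ and 64.0% ± 3.31 in *Ncr1*gfp/gfp ILC1s. The ratio of inhibitors to subunits ranged from 0.595 to 0.765 in *Ncr1*+/+ and from 0.560 to 0.725 in *Ncr1*gfp/gfp libraries. The summed level of *Nfkbiz* and *Bcl3* was 47.4 to 58.3 CPM per kb in *Ncr1*+/+ and 35.1 to 44.9 CPM per kb in *Ncr1*gfp/gfp libraries. On average in *Ncr1*+/+ libraries, *Nfkbiz* held 35.3 of the 51.7 CPM per kb of this sum. *Bcl3* alone overlapped between the genotypes. These sums and ratios are descriptions without a test.

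The genes differed in how far they varied between libraries of 1 genotype. On the log2 scale the SD within genotypes ran from 0.07 for *Rela* and 0.08 for *Nfkb1* to 0.23 for *Nfkbia* and *Bcl3*. Some pairs of genes varied together within the genotypes, and their coefficients carry no test. Of the 45 pairs of genes, 4 had a Pearson's r above 0.7 over the 10 libraries after the genotype means were removed. These were *Relb* with *Nfkb2* (0.75), *Nfkb2* with *Nfkbia* (0.73), *Nfkb2* with *Nfkbie* (0.72) and *Nfkb1* with *Nfkbiz* (0.71). Other pairs of NF-κB-induced genes had coefficients near 0, such as *Relb* with *Nfkbiz* (0.02) and *Nfkbiz* with *Bcl3* (-0.08). The share of pairs above 0.7 among all tested genes was not determined. *Ncr1*gfp/gfp replicate 5 held the lowest *Ncr1*gfp/gfp value of 7 genes, *Relb*, *Rel*, *Nfkb2*, *Nfkbia*, *Nfkbie*, *Nfkbiz* and *Bcl3*, and the highest value of *Rela*. Without this library the log2 fold changes were -0.43 for *Nfkbiz*, 0.01 for *Relb*, 0.03 for *Nfkb2* and 0.04 for *Nfkbie*.

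Around these 10 genes, further components of the pathway were taken from 5 lists. Of 38 tested genes that carry signals to IKK, including the kinases *Chuk*, *Ikbkb* and *Map3k14* and the adaptors *Bcl10* and *Malt1*, none had an adjusted p under 0.05 (edgeR quasi-likelihood fit), and 7 had an unadjusted p under 0.05, 4 lower and 3 higher, where 11.4% of all tested genes did. The smallest p-values were those of *Traf1*, an adaptor that NF-κB induces, at 123 ± 11.2 CPM against 146 ± 5.82 CPM (log2 fold change -0.25, adjusted p = 0.0713), and of *Ube2n*, the ubiquitin-conjugating enzyme Ubc13, at 17.7 ± 2.33 CPM against 12.8 ± 2.30 CPM (log2 fold change 0.47, adjusted p = 0.144). None of 22 negative regulators passed, and 2 had an unadjusted p under 0.05, a share near that 11.4%, namely *Tnfaip3* and its partner *Tnip1*, both with a lower estimate (adjusted p = 0.0888 and 0.250). None of 10 genes of IκB turnover and further IκB proteins passed, and none had an unadjusted p under 0.05 in the same test. In that list *Nfkbid*, which encodes a further nuclear IκB protein, IκBNS, had 58.9 ± 10.9 CPM in *Ncr1*+/+ and 50.3 ± 4.46 CPM in *Ncr1*gfp/gfp ILC1s, and *Nfkbil1* had 21.8 ± 2.26 CPM and 19.3 ± 2.74 CPM. Of 20 nuclear cofactors none passed, and 3 had an unadjusted p under 0.05, also near the share of all tested genes, all with a lower estimate, among them the corepressor gene *Tle1* (log2 fold change -1.19, adjusted p = 0.274, edgeR quasi-likelihood fit). The medians of these 4 lists lay between -0.03 and 0.03 on the log2 scale, next to 0.003 for all tested genes. With DESeq2 in place of edgeR, the 5 lists held 11 genes with an adjusted p under 0.05.

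Known targets of NF-κB made up the fifth list. Of 66 tested targets, 7 fell and 1 rose at an adjusted p under 0.05 (edgeR quasi-likelihood fit), or 12.1%, against 1.35% of all tested genes. The median log2 fold change was -0.17, and 48 of the 66 had a lower estimate. The whole list was drawn up with earlier results of these data known, so that its share of 12.1% is a description and not independent evidence. It also contains *Il2ra* and *Il18r1*, which the study chose on these samples, so that their part in the count is not independent evidence of its direction. *Il2ra* and *Il18r1*, cytokine receptor chains, had log2 fold changes of -1.24 and -1.10. *Pim1*, a survival kinase gene, had 332 ± 28.2 CPM in *Ncr1*+/+ and 256 ± 13.4 CPM in *Ncr1*gfp/gfp ILC1s, without overlap (log2 fold change -0.37, adjusted p = 0.00186). *Sdc4*, a heparan sulfate proteoglycan gene, had 20.7 ± 2.59 CPM and 11.7 ± 2.31 CPM (log2 fold change -0.82, adjusted p = 0.00462), and *Gadd45b*, a stress response gene, had 45.5 ± 5.20 CPM and 31.9 ± 4.14 CPM (log2 fold change -0.51, adjusted p = 0.0139). Both were without overlap between the genotypes. *Gzmb*, the cytotoxic protease granzyme B, was the gene that rose (adjusted p = 0.00813, edgeR quasi-likelihood fit). Its level was 2091 ± 130.5 CPM in *Ncr1*+/+ and 3071 ± 741 CPM in *Ncr1*gfp/gfp ILC1s. The ranges overlapped, with 2199 CPM as the lowest *Ncr1*gfp/gfp and 2229 CPM as the highest *Ncr1*+/+ value. *Junb*, which the dissociation-response list also holds, and *Mmp9* made up the rest of the 7 that fell, and were named after their values were seen. The summed level of the T cell markers given above was higher in *Ncr1*gfp/gfp libraries, and its part in the rise of *Gzmb* was not tested. By flow cytometry, the study found granzyme B protein reduced in ILC1s without NKp46, the opposite direction to this RNA. The reason for this difference was not tested.

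**Figure D5:**
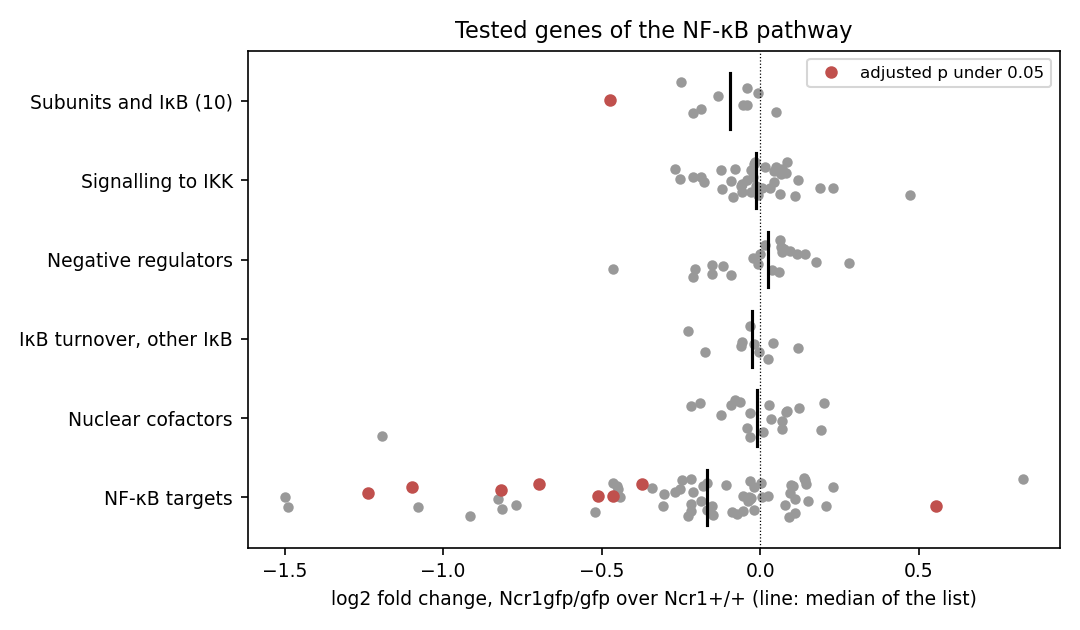
Log2 fold change of the tested genes of each list in *Ncr1*gfp/gfp over *Ncr1*+/+ ILC1s (points; red, adjusted p under 0.05; vertical stroke, median; vertical scatter within a list has no meaning). The median of the 10 genes is -0.09 and that of the targets is -0.17. Those of the other component lists lie between -0.03 and 0.03.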

How the data were processed

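The authors sorted liver ILC1s, made cDNA with the SMART-Seq v4 kit, trimmed the reads, mapped them with STAR to mm10 and counted reads per gene with HTSeq, by the labels and the study's methods; the deposited table holds these raw counts, 1 column a library, with exon lengths and coordinates. The coordinates were printed as the table gives them. The kit does not mark strand, so counts of overlapping genes are uncertain.

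Libraries were grouped by their labels. Genes were filtered with filterByExpr, scaled with TMM and tested in edgeR (version 4.0.16, R 4.3.3) with the quasi-likelihood test and no covariate, as the study's methods describe negative binomial models, and p-values were adjusted by Benjamini-Hochberg over all 11463 tested genes. Called genes had an adjusted p under 0.05 together with a fold change over 1.5 or under 0.7. Exact permutation tests compared mean CPM over all 252 splits of 5 libraries against 5. Correlations within genotypes used log2(CPM + 0.5) minus the genotype means, and levels between genes used CPM per kb of exon. Alternatives used DESeq2 (1.42.0), limma-voom (3.58.1), other normalizations and filters, a replicate block and leaving out each library. The fit was tested on simulated counts with known changes.

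The 10 genes, the pathway lists and the marker lists were chosen with earlier results of these data known. From each pathway list the text names the genes with an adjusted p under 0.05, at most 6 and at least 2 by p-value, and for *Rela* and *Nfkbiz* the 3 genes with the closest residuals. A gene that this rule would name in the cofactor list is not reported here. All 20 pairs of replicates differed beyond sampling noise.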

Additional observations from a re-analysis of the deposited data

Results flagged for a closer look

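*Relb* in *Ncr1*+/+ replicate 1 stood apart from the other 4 libraries of its genotype, at 39.6 CPM where the nearest of them had 45.0 CPM. The gap took 0.787 of the range of the group. Of 26 groups of 5 libraries examined in this way it was the only such value, and chance gives about 1.3. Without this library the log2 fold change of *Relb* was -0.08.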

How the results depend on the processing

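*Nfkbiz* kept its direction and an adjusted p under 0.05 in all 18 alternatives; of 180 values of single genes, 169 kept direction and side of the threshold, 10 reversed and 1 became significant. The last was *Rela*, which DESeq2 added to *Nfkbiz* for 2 genes with an adjusted p under 0.05 (-0.21, adjusted p = 0.0281). None of the 10 genes was called, except *Nfkbiz* without *Ncr1*+/+ replicate 5 (0 to 1 without any 1 library). Over all genes 84 were called, against 138 with the edgeR likelihood ratio test, 131 without the filter on low counts, 23 with a log2 fold change beyond 1 and 60 to 98 without 1 library. An adjusted p under 0.05 was reached by 155 genes, against 312 with DESeq2 and 264 both with the likelihood ratio test and without the filter. In the pathway lists 8 genes passed, against 13 with the likelihood ratio test, 15 without the filter and 6 to 10 without 1 library. Reversals were confined to estimates near 0, and their cause was not tested. Without 1 library the log2 fold change ranged from -0.086 to 0.0074 for *Relb*, from -0.0033 to 0.10 for *Rel*, from -0.11 to 0.030 for *Nfkb2* and from -0.064 to 0.059 for *Nfkbie*, and limma-voom gave -0.0056 for *Rel*. With the replicate number as a block, 87 genes were called, *Nfkbiz* had -0.47 (adjusted p = 0.00195) and no call of the 10 genes changed. Over all tested genes the numbers did not pair the libraries. Deviations of same-numbered libraries correlated at -0.026 to 0.052, and 1 of 5 matched its own number best. *Nfkbiz* itself fell in order from replicate 1 to replicate 5 in both genotypes. Whether the numbers mark a shared preparation was not tested. With 5 libraries a genotype, the standard errors of 0.06 to 0.13 on the log2 scale set the size of difference that could be detected.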
